A study of Mus musculus with 3 samples.

Results

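Binding of retinoid x receptor alpha (RXRα) and retinoic acid receptor alpha (RARα) was measured by chromatin immunoprecipitation followed by sequencing at 9 genes of amino acid breakdown in mouse liver. The 9 genes were chosen by name and were all found among the 22367 protein-coding genes of the GENCODE M1 annotation (mm9). They act on tyrosine (Tat, Hpd, Hgd and Fah), tryptophan (Tdo2), serine (Sds), glutamine and aspartate (Gls2 and Got1) and proline (Prodh). Chromatin came from livers of male wild type C57BL/6 mice aged 3 months, with no treatment named in the labels, and was used for 1 RXRα library, 1 input library (chromatin without antibody) and 1 RARα library. The number of mice behind each library is not given in the sources used here. With 1 library per antibody there was no replicate check and no test between conditions, so each count of genes is given beside the same share over all protein-coding genes.

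Amino acids that are not used for protein are broken down mainly in hepatocytes. Tat, tyrosine aminotransferase, starts tyrosine breakdown, Hpd makes homogentisate from its product, Hgd opens the homogentisate ring, and Fah splits the last intermediate into fumarate and acetoacetate. Tdo2, tryptophan dioxygenase, opens the indole ring and feeds the kynurenine pathway. Sds, serine dehydratase, turns serine into pyruvate, Gls2 is the liver form of glutaminase, Got1 is the cytosolic aspartate aminotransferase, and Prodh starts proline oxidation in mitochondria. RARα and RXRα are nuclear receptors for retinoids. RARα binds DNA mostly as a pair with RXRα, and RXRα also pairs with other hepatic receptors such as PPARα, LXR, FXR and PXR, each pair favouring a direct repeat of the motif AGGTCA with its own spacing.

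The measurements differed in kind. RXRα and input were available as coverage, the number of extended reads over each 32 bp bin, and their tracks summed to 9999939 and 9999292 reads. An RXRα region was a run of bins with at least 20 times the input, where the input of a bin was never taken below the genome mean of 0.603 reads, and runs within 200 bp were joined. A bin with 0 input reads therefore has a ratio that is its RXRα count divided by that mean. RARα was available only as a list of 143280 peaks with a score and a false discovery rate, and this list gives no depth. RARα peaks with a score greater than 20 were kept, and a kept peak was called co-localized where it overlapped an RXRα region by at least 25% of the narrower of the 2. Distances are from the gene start, the 5′ end of the annotated gene, to a peak's summit or a region's midpoint, negative upstream.

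The sequences below lie under or beside RXRα regions that recur in the results, near the top bin of each. Each holds a direct repeat of AGGTCA (DR1 to DR5, the number being the bases between both copies) with up to 2 mismatches over the 12 letters, and carries 20 bases on each side. Capitals mark both copies, and each sequence is read 5′ to 3′ on the strand given (mm9). Only direct repeats were searched for, so other arrangements of the motif are not marked. In the sequence of Gls2 at 7431 bp, the first copy is followed at once by TGACCT, which is AGGTCA read on the other strand. The region 4754 bp upstream of Hpd had the highest ratio within 10 kb of that start, as had the intronic regions at Prodh and at Gls2 (7431 bp) and the region 281 bp upstream of Got1 at theirs. The closest matches that are shown, with 1 mismatch each, were at the regions of Gls2 at 5143 bp and of Got1 at -2777 bp. The Got1 match starts at base 43601894, just outside the called region, which ends at base 43601888.
Hpd -4754, chr5:123637471-123637526, plus strand, DR4: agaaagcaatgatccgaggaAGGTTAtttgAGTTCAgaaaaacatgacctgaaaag
Fah +1536, chr7:91753642-91753694, plus strand, DR1: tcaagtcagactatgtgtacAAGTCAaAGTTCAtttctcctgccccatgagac
Sds -8060, chr5:120918482-120918534, minus strand, DR1: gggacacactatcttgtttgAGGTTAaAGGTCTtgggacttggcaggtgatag
Gls2 +7431, chr10:127638900-127638956, minus strand, DR5: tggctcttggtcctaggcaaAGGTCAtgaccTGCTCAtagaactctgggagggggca
Gls2 +5143, chr10:127636640-127636695, minus strand, DR4: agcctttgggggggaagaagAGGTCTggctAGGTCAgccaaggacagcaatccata
Got1 -281, chr19:43599306-43599359, minus strand, DR2: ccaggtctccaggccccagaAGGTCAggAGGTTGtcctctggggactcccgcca
Got1 -2777, chr19:43601874-43601929, plus strand, DR4: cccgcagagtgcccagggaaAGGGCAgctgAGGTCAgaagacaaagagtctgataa
Prodh +8552, chr16:18081829-18081884, plus strand, DR4: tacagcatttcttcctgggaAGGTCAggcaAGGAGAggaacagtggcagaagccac

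The next sequences are the 100 bases upstream of the start at the genes with the highest (Tat, Tdo2) and the lowest (Gls2) RARα scores. Capitals mark the motif AGGTCA, or a variant with GGGTCA letters, with AGTTCA letters or with GGTTCA letters, on either strand.
Tat upstream, chr8:112514237-112514336, plus strand: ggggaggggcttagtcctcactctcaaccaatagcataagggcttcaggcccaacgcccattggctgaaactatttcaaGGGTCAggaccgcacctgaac
Tdo2 upstream, chr3:81780125-81780224, minus strand: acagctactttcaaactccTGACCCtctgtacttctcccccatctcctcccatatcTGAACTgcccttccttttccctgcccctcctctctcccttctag
Gls2 upstream, chr10:127631413-127631512, plus strand: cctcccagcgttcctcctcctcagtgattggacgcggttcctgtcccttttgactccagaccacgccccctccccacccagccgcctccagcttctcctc

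All 9 genes had a RARα peak, an RXRα region and a co-localized peak within 10 kb of the start. Over all protein-coding genes these shares were 52.2%, 39.8% and 23.5%. Within 1 kb of the start, 8 of the 9 had a RARα peak, against 40.9% of all genes, the exception being Prodh. An RXRα region lay within 1 kb at 6 genes, against 21.6%, and a co-localized peak at 5 genes, against 15.8%. Over the gene bodies the counts were 9 for RARα (all genes 42.5%), 8 for RXRα (33.9%) and 7 for co-localized peaks (17.7%). Tat was the gene with no RXRα region in its body. The comparison set includes genes that liver does not use, and it was not matched on expression, which was not analysed here.

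The 9 genes also had high values among genes that had any. The median of their highest RARα scores was 104, against 48 over the 11676 genes with a RARα peak, and the median of their highest RXRα ratios was 88.0, against 41.5 over the 8900 genes with a region. Together they held 67 RARα peaks within 10 kb, of which 23 were co-localized (34.3%, against 33.1% of the 18093 RARα peaks within 10 kb of any start). Read the other way, 23 of their 36 RXRα regions overlapped a kept RARα peak (63.9%, against 39.4% of all 15094 regions near starts). RARα peaks lay mostly downstream of the start (55 of 67), whereas RXRα regions were split evenly (18 of 36 downstream). Of the 55 RARα peaks, Tat alone held 21 and Tdo2 held 9. The downstream shares over all genes were not computed, so this contrast has no background. Of the 36 regions, 7 touched only RARα peaks with a score of 20 or less, and 6 touched no RARα peak of any score, 3 at Hpd, 2 at Gls2 and 1 at Tat.

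**Figure D1:**
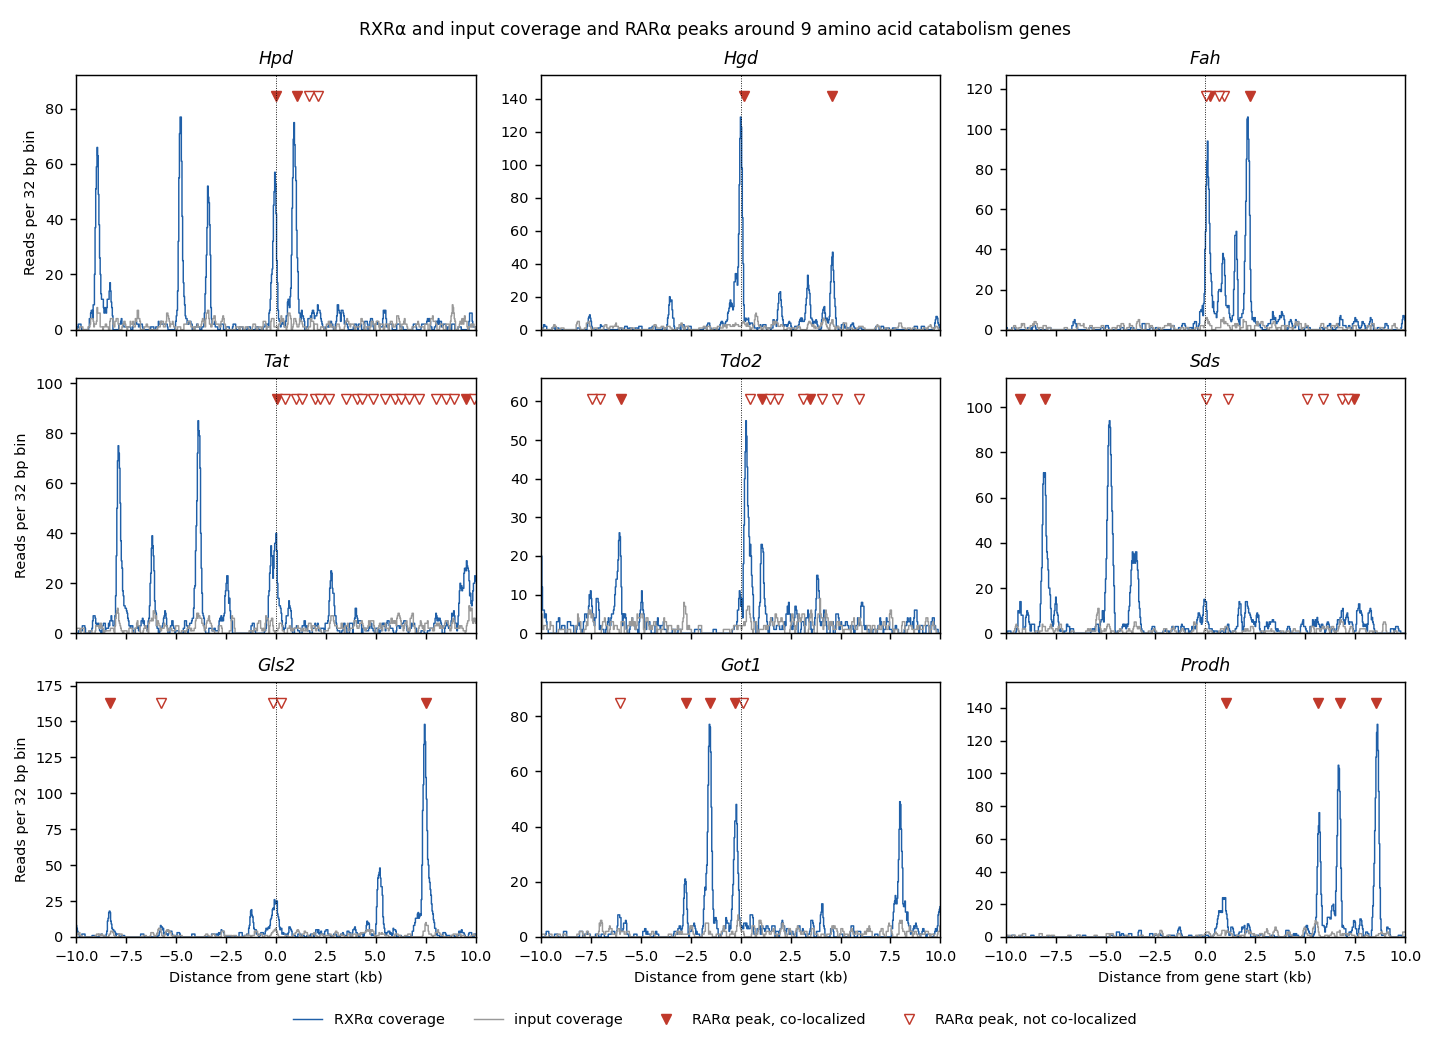
RXRα (blue) and input (grey) coverage in reads per 32 bp bin against distance from the gene start in kb, in the direction of transcription, with the summits of RARα peaks of score greater than 20 as triangles (filled where co-localized). RXRα forms separate narrow summits on both sides of the start at most genes, while RARα peaks line the body of Tat and much of Tdo2 and Sds.

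Tat (ENSMUSG00000001670.7, chr8:112514337-112523703, plus strand) carried the highest RARα score of the 9 genes. This peak scored 213, its summit was 28 bp past the start in the 5′ UTR, and only 64 of the 11676 genes had a higher one. It was co-localized with the RXRα region of highest ratio at the gene, centred at -145 bp. The top bin of that region, at -49 bp, held 36 RXRα reads over 0 input reads (59.7 times input). RXRα rose higher elsewhere: the tallest bin, at -3889 bp, held 85 RXRα reads, touched no RARα peak and was not called a region because 8 input reads lay in the same bin (10.6 times input). Another tall summit, of 75 reads at -7889 bp, touched only a RARα peak of score 18. From the start to beyond the end of the gene, 21 RARα peaks of score greater than 20 followed each other, and all but the first had scores of 60 or less. At those within the body past the first 1 kb, the RXRα coverage was at most 3.06 times the input.

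Hpd (ENSMUSG00000029445.7, chr5:123621816-123632734, minus strand) had 4 RARα peaks and 5 RXRα regions within 10 kb. The RARα peaks of score 82, at 1059 bp, and 65, at 9 bp, were both co-localized. The 3 RXRα regions upstream, at -4754, -8338 and -9010 bp, touched no RARα peak of any score. That at -4754 bp had the highest ratio of the gene, 127.8, with 77 RXRα reads over 0 input reads, and holds the DR4 shown above. The top bin of the region at 942 bp was at 814 bp, 156 bp from the start of a shorter annotated transcript.

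Hgd (ENSMUSG00000022821.7, chr16:37580239-37632106, plus strand) had its highest RARα peak and its strongest RXRα region 161 bp apart, the shortest such distance of the 9 genes. Its RARα peak of score 49 at 146 bp overlapped the RXRα region centred at -15 bp, whose top bin held 129 RXRα reads and 2 input reads (64.5 times input). That RARα score was close to the median of all genes with a peak, and 5660 genes had a higher score. The second co-localized pair, at 4566 bp for RARα (score 21) and 4737 bp for RXRα (23.2 times input), lay in an intron and only just passed both thresholds.

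Fah (ENSMUSG00000030630.9, chr7:91733669-91755232, minus strand) had the highest RXRα ratio of the 9 genes. The region at 2176 bp, in an intron, reached 174.2 times input with 105 RXRα reads over 0 input reads, and only 156 of the 8900 genes with a region had a higher ratio. With the input averaged over 1 kb the ratio was 60.3, below those of Prodh (125.0), Sds (69.4) and Gls2 (63.7), so the rank depends on how the input is taken. The region was co-localized with a RARα peak of score 42. The RARα peak of highest score, 70, lay at 927 bp in the 5′ UTR of a shorter transcript, 32 bp from that transcript's start, and was not co-localized, although RXRα coverage over it was 6.06 times the input. A further RXRα summit, of 94 reads over 5 input reads at 112 bp, was itself just under the threshold (18.8 times input). It lay beside a region centred at 272 bp that passed the threshold (28.2 times input). The region at 1536 bp (49.0 times input) touched only a RARα peak of score 11.

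Tdo2 (ENSMUSG00000028011.9, chr3:81761012-81780124, minus strand) paired a high RARα score with an RXRα ratio that was the lowest of the 9 genes. Its RARα peak of score 194 lay at 454 bp, 2 bp from the start of another annotated transcript, and only 99 genes had a higher score. RXRα coverage over this peak was 6.24 times the input, and the tallest RXRα bin of the gene, 55 reads over 3 input reads at 268 bp, stayed just under the threshold (18.3 times input). The region that was called with the highest ratio, 43.1, lay at -6052 bp, only 36 bp from the start of Accn5, the neighbouring gene. The 2 regions in the Tdo2 body, at 1084 and 3820 bp, had ratios of 23.0 and 24.9. As at Tat, RARα peaks followed each other through the body, 24 of them with a score greater than 20.

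Sds (ENSMUSG00000029597.8, chr5:120926540-120933941, plus strand) lies with its start 3721 bp from that of Sdsl, a related gene, and could be separated from it only in part. The RARα peak of score 111 at 25 bp belonged to the Sds start and was not co-localized. The 4 RXRα regions upstream of Sds, which included the strongest at -4780 bp (131.1 times input, 79 RXRα reads over 0 input reads), all lay nearer to the start of Sdsl. That region touched a RARα peak of score 20, at the threshold but not past it. Within 1 kb of the Sds start no RXRα region was called, and downstream of it 2 regions reached 23.2 and 21.6 times input.

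Gls2 (ENSMUSG00000044005.7, chr10:127631513-127647060, plus strand) had a top RARα score of 41, the lowest of the 9 genes, at -148 bp. This value was below the median of all genes with a peak. RXRα was strongest inside the gene: the region at 7431 bp, in an intron, held the tallest RXRα bin of all 9 genes, 148 reads over 4 input reads, and reached 88.0 times input where the input was 1 read. It was co-localized with a RARα peak of score 27. The regions at -1241 bp (31.5 times input) and 5143 bp (43.0 times input) touched no RARα peak of any score. The upstream region at -8393 bp lay nearer to the start of Rbms2.

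Got1 (ENSMUSG00000025190.7, chr19:43574242-43599095, minus strand) had 3 of its 5 RARα peaks within 10 kb co-localized, but not the highest. That peak, of score 104 at 110 bp, was not co-localized, and RXRα coverage over it was 2.96 times the input, the lowest of the 9 genes at the highest-scoring RARα peak. The RXRα region of highest ratio within 10 kb, 69.7, lay on the other side of the start at -281 bp and was co-localized with a RARα peak of score 27. Regions at -1497 and -2777 bp were also co-localized, with RARα peaks of score 21 each, 1 of which had the highest false discovery rate among the kept peaks at the 9 genes, 3.48%. In the body, just past 10 kb from the start, an RXRα region at 10455 bp reached 102.9 times input and touched no RARα peak.

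Prodh (ENSMUSG00000003526.5, chr16:18060450-18090296, minus strand) had all 4 of its RARα peaks within 10 kb co-localized, as had Hgd with both of its own. The highest RARα score, 111, was at 1026 bp in the 5′ UTR of a shorter transcript, 14 bp from that transcript's start, and overlapped an RXRα region that only just passed the threshold, with 24 RXRα reads over 1 input read. The RXRα regions of higher ratio lay deeper in the gene, at 5752 bp (76.3), 6664 bp (72.0) and 8552 bp (141.0), each with a RARα peak of score 30 or less. No RARα peak and no RXRα region lay upstream of the start within 10 kb. A further co-localized pair, with its RXRα region at 23736 bp and a RARα score of 38, lay nearer to the start of Dgcr6.

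Across the 9 genes, the highest-scoring RARα peak lay near the start and the strongest RXRα region often did not. The RARα peak was within 1 kb of the gene start at 7 genes, against 66.6% of all genes with a peak, and Hpd (1059 bp) and Prodh (1026 bp) were just past this limit. Measured to the start of any annotated transcript, it was within 1 kb at all 9, against 69.7%. The RXRα region of highest ratio was within 1 kb at 3 genes (Hgd, Tat and Got1), against 34.4%. The tallest RXRα bin, whatever its input, was within 1 kb at 2 genes (Hgd and Tdo2), against 33.3% of the genes with a bin of at least 20 reads. Such a bin was present within 10 kb of all 9 genes, against 39.5% of all genes. The counts of 7, 3 and 2 genes were thus near the shares of genes in general, for RARα as for RXRα. The highest-scoring RARα peak was itself co-localized at 4 genes (Hpd, Hgd, Tat and Prodh), against 31.5%.

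**Figure D2:**
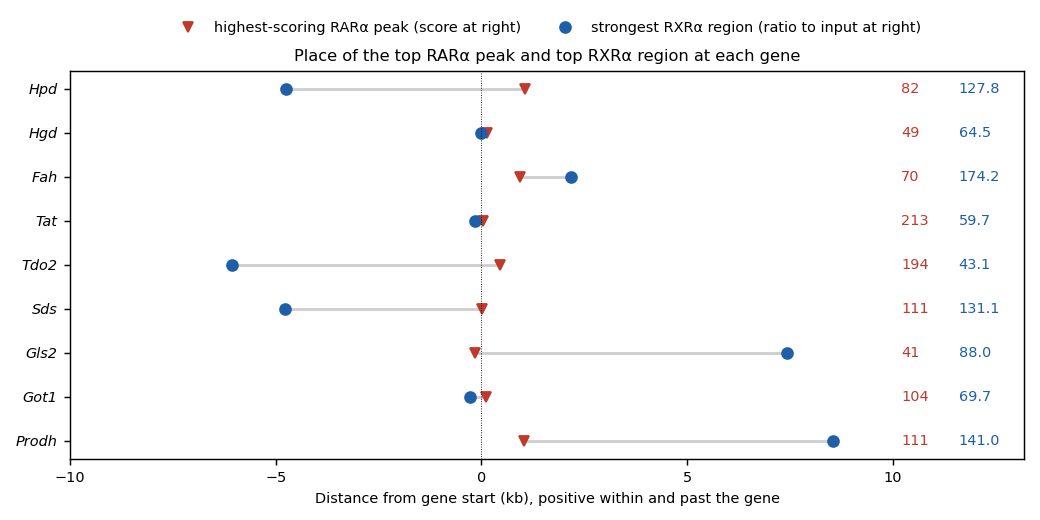
Distance in kb from the gene start of the highest-scoring RARα peak (triangle) and of the RXRα region with the highest ratio to input (circle) at each gene, with the score and the ratio printed at right. The RARα triangles lie at most 1059 bp from the start, while 6 of the 9 RXRα circles lie more than 1 kb away, 3 upstream and 3 within the gene.

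The RXRα ratio rule depends on the input in single bins. Within 10 kb of the 9 starts there were 40 RXRα summits, each a run of bins of at least 20 reads, joined within 200 bp. At 12 of them no part of the run touched a region, and input reads lay beneath the tallest bin. At some of the others the tallest bin was also under the threshold, and another part of the run touched a region. Examples were -7889 bp of Tat (75 reads over 8 input reads, 9.37 times input) and -8946 bp of Hpd (66 over 8, 8.25 times). The tallest of the 12 was the one at -3889 bp of Tat described above. It was followed by 55 reads at 268 bp of Tdo2 and 52 reads at -3410 bp of Hpd, where 7 input reads lay in the same bin. Of the 40 summits, 24 touched a RARα peak of score greater than 20, 8 touched only weaker RARα peaks, and 8 touched none. Among the 42 regions within 10 kb or in the bodies, the top bin held 0 input reads in 26, 1 in 14 and 2 in 2.

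Summed over wider windows, RXRα exceeded the input at all 9 genes. Within 10 kb of the start the ratio of RXRα to input reads ran from 5.40 at Sds (95% exact interval 4.50 to 6.53) to 1.92 at Tdo2 (1.63 to 2.27), with a median of 3.26 against 1.09 over all genes. In the order Sds, Prodh, Gls2, Fah, Hgd, Hpd, Got1, Tat and Tdo2, the intervals of neighbours overlapped except between Tat and Tdo2. The intervals cover counting error only.

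Within 1 kb the order was different. Fah was highest with 10.7 (6.80 to 17.2), from 232 RXRα and 22 input reads, and Prodh lowest with 3.62 (2.08 to 7.11), from 56 and 15 reads. All neighbours in that order overlapped. The median was 4.59, against 1.77 over all genes.

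In the gene body past the first 1 kb the 9 genes fell into a higher and a lower set whose intervals did not overlap. Gls2 (4.95), Prodh (3.71), Sds (3.08, lower bound 2.19), Fah (2.89) and Got1 (2.67) were above Hpd (1.65, upper bound 2.12), Hgd (1.49), Tdo2 (1.27) and Tat (1.21, 0.972 to 1.51). At Tat the interval included 1.

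**Figure D3:**
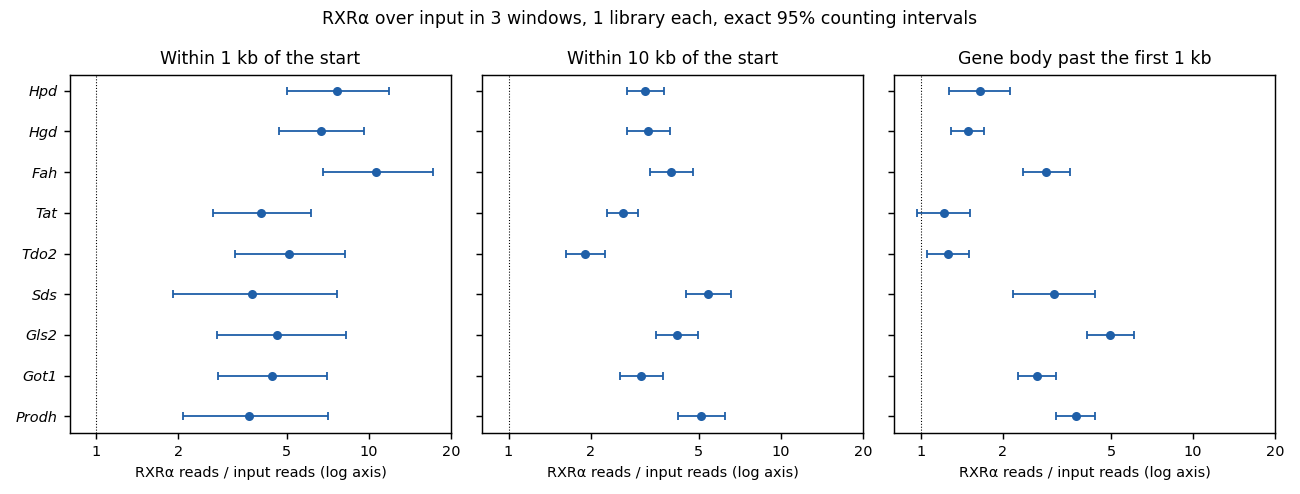
Ratio of RXRα to input reads at each gene within 1 kb of the start, within 10 kb, and in the body past the first 1 kb, on log axes, with exact 95% counting intervals as bars and a dotted line at 1. Near the start all 9 ratios are above 1, whereas in the body past the first 1 kb the interval of Tat reaches below 1 and Gls2 is highest at 4.95.

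RARα peaks of any score covered long stretches of several bodies. They covered 98.1% of the Tat body, 88.9% of Tdo2, 86.5% of Sds and 65.1% of Hpd. The cover was 45.0% at Fah, 28.9% at Got1, 27.9% at Hgd, 22.7% at Prodh and 19.4% at Gls2. The median over all genes was 1.84%, and 54 genes had a larger share than Tat. Counting only peaks within the body, the longest runs of peaks of any score with gaps of at most 20 bp held 24 peaks at Tdo2 and 19 at Tat. Tat and Tdo2, the genes with the largest RARα cover, had the lowest RXRα ratio in the body past the first 1 kb, but Sds, with nearly the same cover as Tdo2, was in the higher set, and Hgd, with a small cover, in the lower. RXRα coverage there was 5.79 times the genome mean at Tat and 5.94 times at Sds, while the input was 4.78 and 1.94 times.

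The input library was also above the genome mean over these bodies. That mean is over all bins of the genome, and the input over other gene bodies was not computed. Input coverage was 4.56 times the genome mean at Tat, 3.34 times at Tdo2 and 2.79 times at Hpd, and between 1.77 and 2.40 times at the other 6 genes. Sds, with 86.5% of its body in RARα peaks, had 1.86 times the genome mean. The study's methods set the background cutoff relative to input, and the library used as control for the RARα peaks is not named. The part of the input in the RARα cover was not tested.

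**Figure D4:**
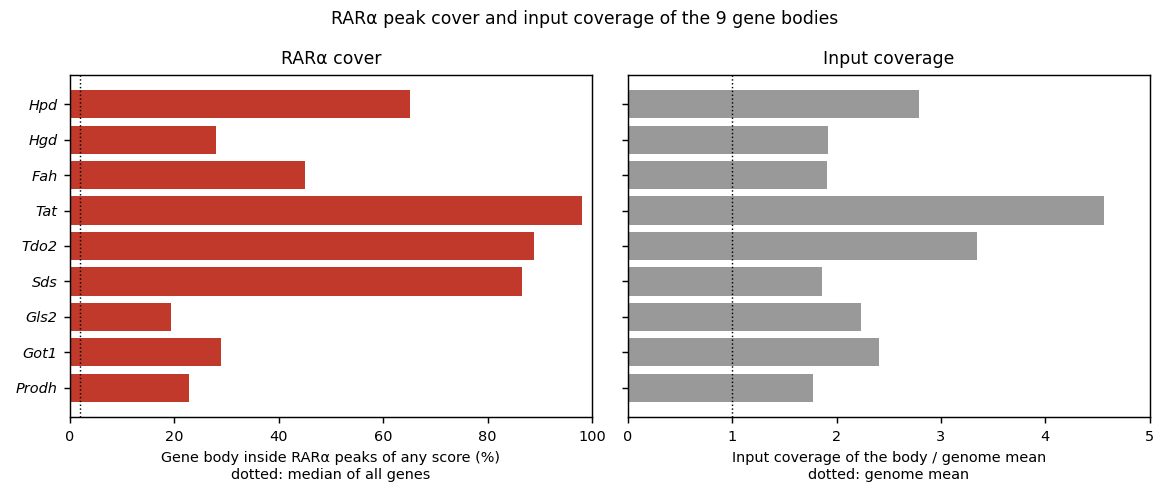
Share of each gene body inside RARα peaks of any score, in percent (left, dotted line at the median of all genes, 1.84%), and input coverage of the body as a multiple of the genome mean (right, dotted line at 1). Tat and Tdo2 have the longest bars in both panels, while Sds has a long RARα bar and an input of 1.86.

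Exact direct repeats were rare around these sites. Both copies matching AGGTCA or 1 of the 3 variants named above, with a spacing of 1 to 5 bases on either strand, were found in 1 of the 42 RXRα regions (2.38%, against 2.98% of all 42117 regions), taking 100 bases on each side of the top bin. That match was a DR2 beside the region 1241 bp upstream of Gls2, just outside its called bounds. No such repeat was found around the 86 RARα summits within 10 kb or in the bodies, against 0.677% of all kept summits, or in the 9 promoters (250 bases before to 50 after the start), against 0.438% of all promoters. Single copies were found in 64.3% of the regions, against 64.8% of all regions, and in 7 of the 9 promoters, against 41.0% of all promoters.

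With up to 2 mismatches allowed to AGGTCA, a repeat was found at 17 of the 42 regions (40.5%), in the same window around the top bin. Some of these matches lay outside the called region itself. The share was 28.0% over a sample of 4212 of all regions, taken at even steps. It was 11.9% and 11.7% in windows 1 kb to the side of both sets. The mismatch limit was chosen after the exact matches had been counted. The best match was a DR1 at 5 regions (11.9%, against 10.9% of the sampled regions) and a DR4 at 5 (11.9%, against 4.70%). It was a DR2 at 3 (7.14%, against 4.56%), a DR3 at 3 (7.14%, against 3.73%) and a DR5 at 1 (2.38%, against 4.11%). At the strongest regions of Fah, Tat, Tdo2 and Sds none was found in this window. A match is a description of the letters and not evidence that a receptor pair binds there.

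The promoters differed in their CpG content. Over 300 bases there were 26 CpG at Gls2 and 18 at Got1, above the median of 11 for all promoters, while Sds had 11, Fah 9, Hpd 7, Tat 5, Hgd 2, Prodh 2 and Tdo2 0. The RARα scores had no single order along these counts. Tat (213), Tdo2 (194), Prodh (111), Hpd (82), Fah (70) and Hgd (49) were below the median, Sds (111) was at it, and Got1 (104) and Gls2 (41) were above it. The CpG window surrounds the gene start, but the scored summits of Tdo2 (454 bp), Fah (927 bp), Prodh (1026 bp) and Hpd (1059 bp) lay well beyond it. For these genes the CpG count is not that of the sequence under the peak.

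A list of 61 other genes, mostly of amino acid breakdown but with Glul, glutamine synthetase, among them, showed the same presence of both receptors at most genes. Of these, 60 had a RARα peak within 10 kb (98.4%), 54 an RXRα region (88.5%) and 50 a co-localized peak (82.0%), against 52.2%, 39.8% and 23.5% of all genes. The 4 other genes of phenylalanine and tyrosine breakdown, the 4 of histidine and the 4 of lysine all had co-localized peaks. Of the 12 genes of serine, threonine and glycine, 11 had a RARα peak, 10 an RXRα region and 8 a co-localized peak. Of the 18 genes of branched chain amino acids, 18 had a RARα peak but 14 an RXRα region and 13 a co-localized peak. The gene with neither was Tdh, threonine dehydrogenase.

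The highest RXRα ratios of the list were at Amdhd1 (282.0) and Uroc1 (215.7), both of histidine breakdown, and at Hibch (219.0), of valine breakdown. These were above the highest of the 9 genes, Fah. The highest RARα scores were 187 at Amt, of the glycine cleavage system, 169 at Glud1, glutamate dehydrogenase, and 168 at Glul, glutamine synthetase. None of these reached the 194 of Tdo2 or the 213 of Tat. The median of the list was 66 for the RARα score and 63.9 for the RXRα ratio, between those of the 9 genes and of all genes.

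**Figure D5:**
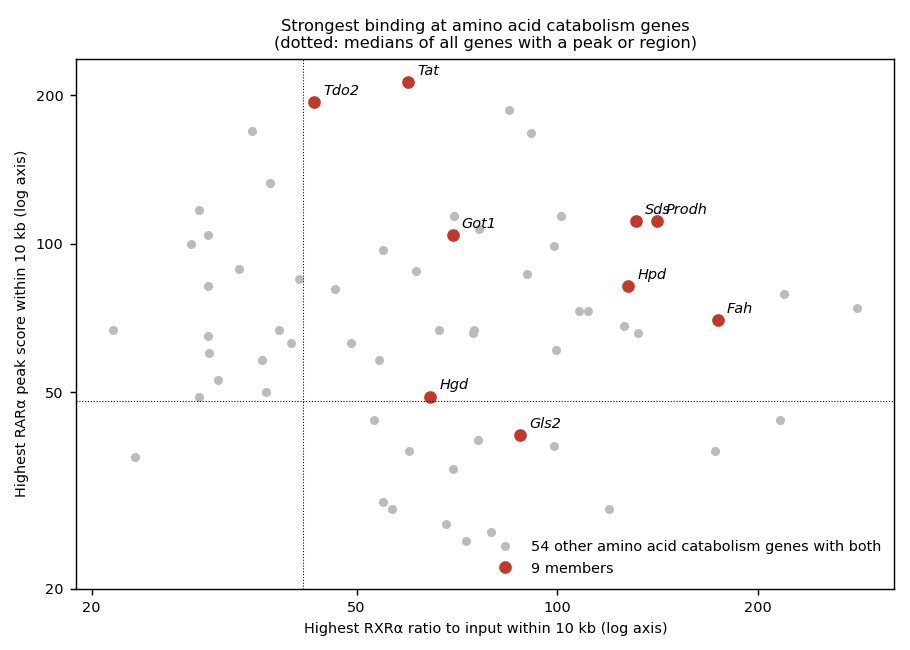
Highest RARα score against highest RXRα ratio to input within 10 kb of the start, on log axes, for the 9 genes (red, named) and for the 54 of the 61 other listed genes that had both (grey), with dotted lines at the medians of all genes. Tat (213) and Tdo2 (194) lie highest with RXRα ratios of 59.7 and 43.1, and Fah lies furthest right of the 9 at 174.2.

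As a check of the labelled tissue, all 6 hepatocyte marker genes (among them Alb and Cps1) had a RARα peak, an RXRα region and a co-localized peak within 10 kb. Of the 20 marker genes of Kupffer cells, stellate cells, liver endothelium, bile duct, muscle and neurons, 4 had a RARα peak, with scores from 22 to 40. An RXRα region was found at 1 and a co-localized peak at 0. The shares over all genes were 52.2%, 39.8% and 23.5%. This holds for the 10 kb window only. Most of the 20 had no site over the body either, but Stab2 had 15 RXRα regions and 3 RARα peaks there, Syt1 7 and 4, and Rbfox3 4 and 4.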

How the data were processed

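The authors aligned reads with Bowtie and called RARα peaks with MACS. The labels and file headers give mm9, while the study's methods name a later build for alignment; all RARα peaks fitted within the mm9 chromosomes, and mm9 was used. The deposited RXRα and input files hold signal, the coverage by extended reads per 32 bp bin, with about 5 bins per read. Both tracks sum to nearly the same total, and the study gives more mapped RXRα reads than its track holds, so that track was reduced or scaled before deposit by a step that is not described. Exact intervals take the deposited reads as counted and may not match the true counting error. The deposited RARα file holds a score and a false discovery rate in percent per peak. How the score was computed is not given in the sources used here, and the file itself gives no depth.

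RXRα regions, overlaps and distances were computed in Python 3.11.15 (tables with pandas 2.3.3, coverage with numpy 2.4.6, intervals with scipy 1.17.1, sequences with pysam 0.24.0), and region calling was tested on simulated data. Thresholds (score greater than 20, 20 times input, 10 kb, 25% overlap) follow the study's methods. The 9 genes, the pathway list of 61 genes and the markers were chosen with earlier results of these data known. Genes named beyond the 9 were the 3 of the pathway list with the highest RXRα ratio, the 3 with the highest RARα score, those with neither, and genes whose start was nearer to a described site. Alternatives were no score threshold or a score greater than 50, 10 or 30 times input, the input mean over 1 kb, unscaled tracks, other overlaps and other distance rules. The tallest RXRα bin, the distance of the highest-scoring RARα peak to any transcript start and the mismatches in repeats were added after seeing the data.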

Additional observations from a re-analysis of the deposited data

How the results depend on the processing

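Of 52 counts of genes recomputed under alternatives, 49 stayed within 1.5 times the reported count. With a RARα score greater than 50, a co-localized peak was left at 3 of the 9 genes and at 25 of the 61 pathway genes. With peaks within 1 kb of the start only, 5 of the 9 genes had a co-localized peak. With the input mean over 1 kb, RXRα regions were left at 8 genes and co-localized peaks at 7, Tdo2 having no region, and 6 of the other 8 highest ratios fell outside their counting interval, for example from 174.2 to 60.3 at Fah and from 127.8 to 55.5 at Hpd. Over the gene body, the highest RARα score was the same at 8 genes and was 27 at Gls2. No paired analysis was possible because each antibody has 1 library. The RARα file gives no depth and no result has a replicate.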
